A study of Rattus norvegicus with 6 samples.

Results

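Transcripts of 9 genes of autophagy and mitophagy were compared in the left ventricle of diabetic and non-diabetic rats. The genes were Ulk1, Becn1, Atg5, Atg7, Map1lc3b, Sqstm1, Bnip3, Pink1 and Lamp2, taken by their gene names. They are 9 of 26456 gene names on the array and 9 of the 18816 genes that could be tested, and 12 of 30367 probes carried their names. All 12 probes were well above background on all 6 arrays and none was saturated.

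OLETF rats, the group with type 2 diabetes, gave 3 ventricles, from males of 27, 28 and 27 weeks for OLETF 1 to 3. LETO rats, the non-diabetic control strain, gave 3 ventricles, from males of 27, 28 and 28 weeks for LETO 1 to 3. Each rat had 1 array, the Agilent Rat GE 4x44K v3 design read in 1 colour, and the design text speaks of independent experiments, so p-values measure the spread between these samples. OLETF is a strain of its own in which obesity and type 2 diabetes develop together, so diabetes and strain cannot be told apart. The sample titles mark all 6 samples as ex vivo, and the labels name no agent for either group. LETO 1 stood apart from the other LETO arrays, and strain was partly mixed with slide, so values without LETO 1 and within a slide are given after the single genes.

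Autophagy encloses cell material in a double membrane and delivers it to the lysosome. A kinase complex starts it, a lipid kinase complex marks the membrane, and enzymes related to those of ubiquitin conjugation fix proteins of the ATG8 family to that membrane, where cargo receptors bind. In mitophagy the cargo is the mitochondrion, marked by way of the kinase PINK1 or by receptors of its outer membrane such as BNIP3. The heart muscle cell is dense in mitochondria and divides little, and it is known to rely on this turnover. Much of the control acts on proteins, whereas the arrays measured messenger RNA only.

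None of the 9 genes passed the test between strains. With limma and Benjamini-Hochberg adjustment over all genes, 0 of 9 were called at an adjusted p below 0.05, where 2.55% of all genes tested were called (283 higher and 197 lower in OLETF). At an unadjusted p below 0.05 the count was also 0 of 9, against 12.4% of all genes. The median difference of the 9 genes was 0.04 on the log2 scale, and that of all genes was -0.01. Positive differences were found for 6 genes and negative ones for 3. The median absolute difference was 0.0710 for the 9 genes and 0.0979 for all genes, and the median SD within strains was 0.0953 for the 9 genes and 0.146 for all genes.

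Levels are log2 ratios of the processed signal to the 75th percentile of its own array, so that 0 is the signal of the probe at that percentile. A level depends on the probe as well as on the transcript, so levels are compared between rats and never between genes. Differences are OLETF minus LETO on the same log2 scale, with the SE of the fit. Probe positions come from the deposited files and refer to rn4, and exon or UTR annotation of the probes was not used here.

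**Figure D1:**
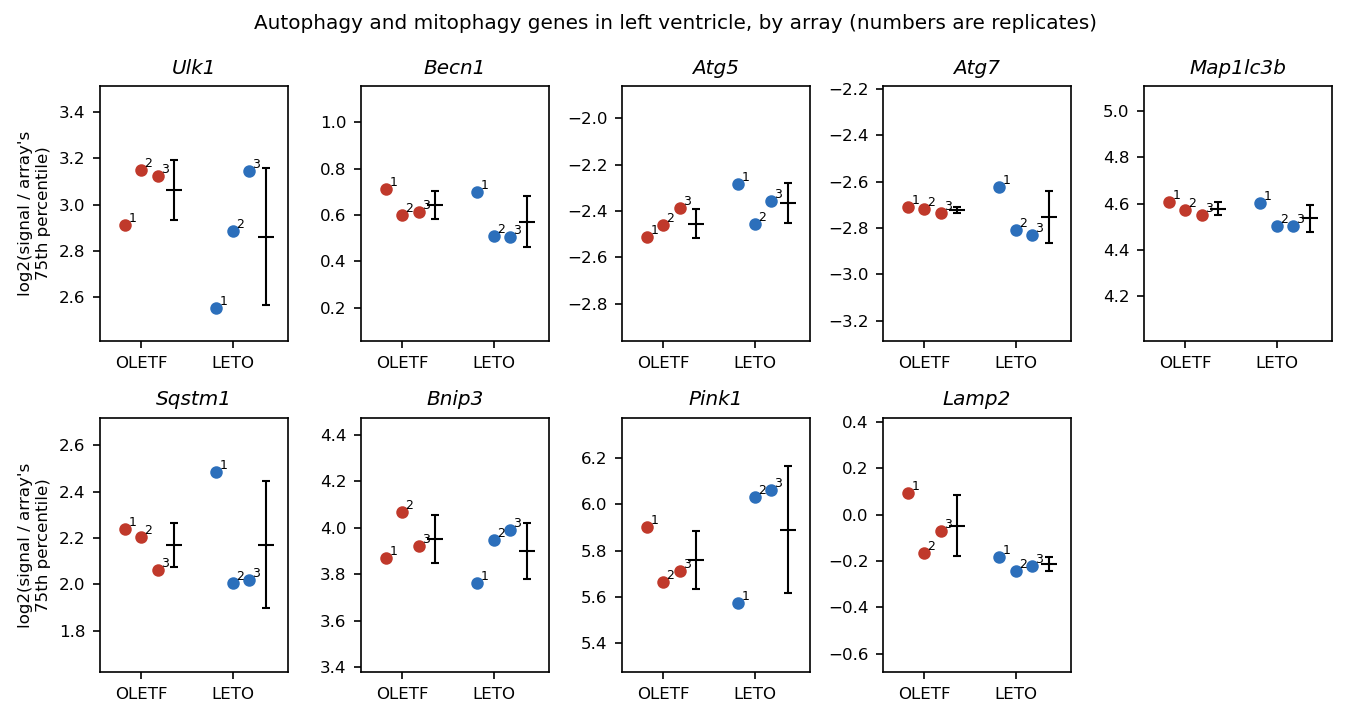
Level of each of the 9 genes on each array (vertical axis, log2 ratio of signal to the 75th percentile of the array), with the 3 OLETF rats in red left of the 3 LETO rats in blue and the mean and SD of each strain beside the points. All panels span the same number of log2 units, and only the points of Lamp2 do not overlap between strains.

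Initiation and nucleation come first in the pathway. Ulk1, the kinase that starts autophagosome formation, was measured by 1 probe at chr12:46022440-46022499. It had levels of 2.91, 3.15 and 3.12 in OLETF 1 to 3, against 2.55, 2.89 and 3.14 in LETO 1 to 3. The strains overlapped, because LETO 3 lay level with OLETF 2 and OLETF 3, while LETO 1 was the lowest of the 6. The difference was 0.20 ± 0.16, with a 95% confidence interval of -0.18 to 0.58 (limma adjusted p = 0.766). As a fold this was 1.15, with an interval of 0.885 to 1.49, the widest bound of the 9 genes.

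Becn1, the beclin subunit of the lipid kinase complex, was measured at chr10:90318654-90319457. This stretch of 804 bases is longer than the probe of 60 bases, so the probe spans at least 1 intron. Its levels were 0.71, 0.60 and 0.61 in the OLETF ventricles, against 0.70, 0.51 and 0.50 in the LETO ventricles. OLETF 1 and LETO 1 were nearly level, and the other LETO ventricles were the lowest. The difference was 0.07 ± 0.09 (limma adjusted p = 0.906), with an interval of -0.15 to 0.29.

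The conjugation enzymes attach ATG8 proteins to lipid. Atg7 is the activating enzyme of that reaction, and its probe at chr4:150854179-150866191 spans 12013 bases of the genome. OLETF ventricles read -2.71, -2.72 and -2.74, against -2.62, -2.81 and -2.83 in LETO ventricles. The OLETF values lay within the range of the LETO values. The difference of 0.03 ± 0.09 had an interval of -0.18 to 0.24 (limma adjusted p = 0.963).

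Atg5, which joins Atg12 in the enzyme complex that places ATG8 proteins on the membrane, had 2 probes whose starts lie 39765 bases apart on chromosome 20. Their first 30 of 60 bases are printed here because the probes gave different signs, the brighter one at 48366259 to 48366318 first and the dimmer one at 48326494 to 48326553 after it.
Atg5 brighter probe: ctgtgacttgaaaatctgtcttctagatac
Atg5 dimmer probe: ggaaactcatggaataccctccagaagaaa
The brighter probe had levels of -2.51, -2.46 and -2.39 in OLETF, against -2.28, -2.46 and -2.36 in LETO. These overlapped, with a difference of -0.09 ± 0.09 and an interval of -0.30 to 0.12 (limma adjusted p = 0.846).

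The dimmer probe of Atg5 read -3.02, -3.21 and -3.14 in OLETF, against -3.32, -3.41 and -3.22 in LETO. All 3 OLETF values lay above all 3 LETO values, although OLETF 2 and LETO 3 were separated by little. The difference was 0.20 ± 0.10, with an interval of -0.03 to 0.42 (limma adjusted p = 0.495 over all tested probes). The probes differed by 0.28 in their differences, and with the mean of both probes the value for Atg5 was 0.05. Which of them follows the Atg5 transcript more closely was not tested.

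Map1lc3b encodes LC3B, the ATG8 protein that marks autophagosomes. Its brighter probe, at chr19:51853509-51853568, had levels of 4.61, 4.57 and 4.55 in OLETF ventricles, against 4.60, 4.50 and 4.50 in LETO ventricles. The strains overlapped, with LETO 1 among the OLETF values. The difference was 0.04 ± 0.08, with an interval of -0.15 to 0.23 (limma adjusted p = 0.944), the narrowest of the 9. The second probe lies 654 bases further on and gave 0.09 ± 0.12 (limma adjusted p = 0.901 over probes).

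None of its relatives in the ATG8 family passed the test. Map1lc3a, which encodes LC3A, had 6.02, 6.35 and 6.08 in OLETF against 6.16, 6.04 and 6.16 in LETO, a difference of 0.03 (limma adjusted p = 0.970). Gabarap had -0.0028 (adjusted p = 0.996), Gabarapl1 had -0.0098 (adjusted p = 0.993) and Gabarapl2 had 0.0094 (adjusted p = 0.994), each with limma on its brightest probe. Over the 5 genes of the ATG8 family the differences ran from -0.01 to 0.04. Other probes gave 0.12 for Gabarapl1 and 0.06 and -0.03 for Gabarapl2.

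Sqstm1 encodes p62, the receptor that binds ubiquitin-tagged cargo and LC3. The array carried a probe named for its transcript variant 1 and another for variant 2, whose starts lie 7605 bases apart on chromosome 10, and their first 30 bases show that they read different stretches.
Sqstm1 variant 1: agaagagagtctgagtgtgcacatgctgac
Sqstm1 variant 2: tggcctaaagtccagaagttcctacaatca
The variant 1 probe, at 35751726 to 35751785, read 2.24, 2.21 and 2.06 in OLETF, against 2.49, 2.01 and 2.02 in LETO. LETO 1 was the highest of the 6 and LETO 2 and LETO 3 were the lowest, so the means were nearly equal. The difference was -0.0021 ± 0.15, with an interval of -0.35 to 0.34 (limma adjusted p = 0.999).

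The variant 2 probe, at 35759331 to 35759390, read 0.02, 0.01 and -0.09 in OLETF, against 0.28, 0.02 and -0.19 in LETO. LETO held both the highest and the lowest value. The difference was -0.05 ± 0.13 (limma adjusted p = 0.954 over probes).

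Among the mitophagy receptors, Bnip3 encodes an outer membrane protein that binds LC3 and is known as a target of hypoxia signalling. Its probe at chr1:198683030-198683089 had levels of 3.87, 4.07 and 3.92 in OLETF, against 3.76, 3.95 and 3.99 in LETO. The values of the strains interleaved. The difference was 0.05 ± 0.10, with an interval of -0.19 to 0.29 (limma adjusted p = 0.945). Bnip3l, its close relative also called NIX, had 0.12 ± 0.10 (limma adjusted p = 0.769).

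Pink1 encodes the kinase that gathers on damaged mitochondria. Its probe at chr5:157091288-157091347 had levels of 5.90, 5.66 and 5.71 in OLETF ventricles, against 5.58, 6.03 and 6.06 in LETO ventricles. LETO 1 was the lowest of the 6, and LETO 2 and LETO 3 were the highest. The difference was -0.13 ± 0.15, with an interval of -0.49 to 0.23 (limma adjusted p = 0.881).

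Lamp2 encodes a membrane protein of the lysosome that is needed for fusion with autophagosomes, and its loss causes Danon disease, a heart muscle disease of humans. Its probe lies at chrX:6931712-6938320, spans 6609 bases of the genome and begins as follows.
Lamp2: tgctgtgaaaaatgaaaaacggttctatct
Levels were 0.09, -0.17 and -0.07 in OLETF 1 to 3, against -0.18, -0.24 and -0.22 in LETO 1 to 3. All 3 OLETF ventricles lay above all 3 LETO ventricles, with OLETF 2 just above LETO 1. The difference was 0.17 ± 0.10, with an interval of -0.06 to 0.39 (limma adjusted p = 0.596), or 1.12-fold with an interval of 0.960 to 1.31. It was the only one of the 9 genes whose strains did not overlap, 1 of 9, where 17.4% of all genes tested had strains that did not overlap in either direction. Lamp1, the related lysosomal membrane protein, had -0.05 ± 0.09 (limma adjusted p = 0.941).

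**Figure D2:**
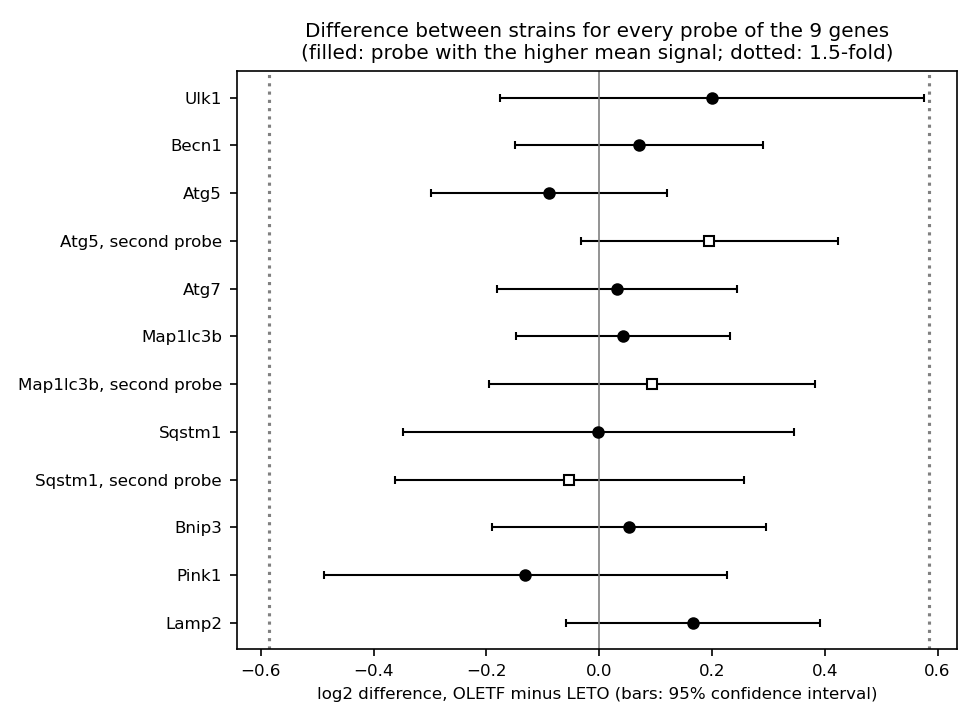
Difference between strains for all 12 probes of the 9 genes (horizontal axis, log2 units, OLETF minus LETO), with 95% confidence intervals as bars, filled circles for the probe that stands for its gene and open squares for the second probe. Dotted lines mark 1.5-fold either way, and the intervals of all 12 probes cross 0 and lie between those lines.

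The arrays were run on 2 slides, with all 3 LETO arrays and OLETF 1 on slide 1 and with OLETF 2 and OLETF 3 on slide 2. Slide as a block therefore sets OLETF 1 against the 3 LETO arrays. The difference with this block was 0.31 for Lamp2 (limma adjusted p = 0.645), 0.14 for Becn1 and -0.15 for Atg5. For Map1lc3b and Sqstm1 it was 0.07 each, and for Ulk1 it was 0.05. Atg7 had 0.04, Pink1 had 0.01 and Bnip3 had -0.03. This comparison rests on OLETF 1 alone for its strain, and 0 of 9 were called with the block.

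LETO 1, the only LETO rat of 27 weeks, also had the smallest limma array weight, 0.205. Within LETO its departure and its age cannot be told apart. Leaving out LETO 1 sets LETO rats of 28 weeks only against OLETF rats of 27 and 28 weeks. The level in LETO 1 differed from the mean of LETO 2 and LETO 3 by over 0.2 on the log2 scale for 4 of the 9 genes, or 44.4%, and for 51.2% of all genes tested. The 4 were Sqstm1, higher in LETO 1 by 0.47, and Pink1, Ulk1 and Bnip3 at -0.47, -0.46 and -0.21. Without LETO 1 the difference between strains was 0.16 for Sqstm1 (limma adjusted p = 0.379), -0.29 for Pink1 (limma adjusted p = 0.202) and 0.05 for Ulk1 (limma adjusted p = 0.870). Without LETO 3 the difference of Ulk1 was 0.34 (limma adjusted p = 0.489), and without OLETF 1 that of Lamp2 was 0.10 (limma adjusted p = 0.907). None of the 9 genes was called without any 1 of the 6 arrays. Pink1 came nearest to the threshold with array weights, at -0.28 (limma adjusted p = 0.104).

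**Figure D3:**
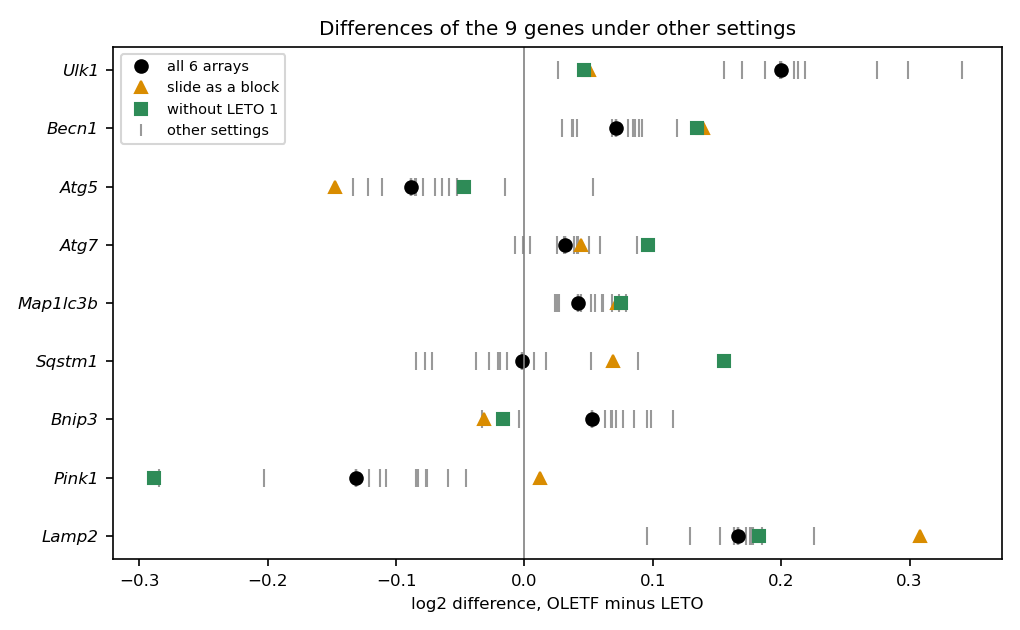
Difference of each of the 9 genes (horizontal axis, log2 units, OLETF minus LETO) with all 6 arrays (black circles), with slide as a block (orange triangles), without LETO 1 (green squares) and under the other settings (grey ticks). Pink1 lies at -0.29 without LETO 1 and at 0.01 with the slide block, whereas Lamp2 is positive under every setting drawn, from 0.10 without OLETF 1 to 0.31 with the slide block.

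Promoters of 8 of the 9 genes, all but Becn1, were found in a RefSeq table of the GRCr8 build, which gives 250 bases before and 50 after each start. The letters CACGTG, an E-box that the lysosomal regulator TFEB is known to bind and that reads the same on both strands, occurred in 3 of 8, against 6.42% of 33469 promoters of the same length. They are shown because TFEB is known as a regulator of autophagy genes. The box is in capitals, each run is 5′ to 3′ on the strand of the gene, and the runs lie at chr1:203155041-203155076 (minus strand), chr5:155826028-155826126 (minus strand) and chr20:49380801-49380834 (plus strand).
Bnip3: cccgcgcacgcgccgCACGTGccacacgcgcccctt
Pink1: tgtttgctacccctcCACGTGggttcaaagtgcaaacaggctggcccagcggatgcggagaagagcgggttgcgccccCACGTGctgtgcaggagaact
Atg5: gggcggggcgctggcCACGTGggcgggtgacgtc
The box began 99 bases before the start in Bnip3, 161 and 98 bases before it in Pink1, and 19 bases before it in Atg5.

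The forkhead motif TGTTTAC, searched on both strands, was found in 0 of 8 of these promoters and in 3.78% of all. The antioxidant response core TGACNNNGC, on both strands, was found in 1 of 8, 8 bases before the start of Map1lc3b, and in 12.06% of all. The differences of the 3 genes with the E-box were 0.05 for Bnip3, -0.13 for Pink1 and -0.09 for Atg5, as given above, and none passed the test. A match of letters is a description of the window only.

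The wider pathway was described with 11 lists of 115 genes by role, the 9 genes included. Of these, 109 were tested, and 6 were not found under the names searched, namely Rubcn, Atg2b, Epg5, Tfe3, Foxo1 and Deptor. Higher in OLETF were 0 of 109 (1.5% of all genes tested were higher) and lower was 1 of 109 (1.05% of all were lower). The median difference of the 109 genes was 0.02. The strains did not overlap in 9 genes that were higher and in 5 that were lower in OLETF, against 17.4% of all genes in either direction. At an unadjusted p below 0.05 the count was 3 of 109, against 12.4% of all genes.

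Wdr45b, named Wdr45l on the array, was the gene that fell. It encodes a WIPI protein that binds membrane lipids where autophagosomes form. Its only probe lies at chr10:110560525-110561386 and begins as follows.
Wdr45b: aggatctcaagcagctaatatctattgcat
OLETF 1 to 3 had levels of -2.57, -2.58 and -2.43, against -1.996, -2.03 and -2.09 in LETO 1 to 3. Every OLETF value lay below every LETO value. The difference was -0.49 ± 0.09, with an interval of -0.69 to -0.28 (limma adjusted p = 0.0345). With slide as a block it was -0.53 (limma adjusted p = 0.274), with normexp background correction it was -0.30 (limma adjusted p = 0.0817), and the call was lost without any one of the arrays other than LETO 1. With each array left out in turn the difference lay between -0.54 and -0.46. In the same list Wdr45, Wipi1 and Wipi2, named after their values were seen, had differences of the other sign, 0.21, 0.14 and 0.02. None of them was called, and of them only Wdr45 did not overlap between strains. The list of membrane supply held 7 genes with positive and 2 with negative differences.

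Markers of other cells are given beside these because bulk ventricle RNA was measured, in which fewer cells of a type and less RNA per cell cannot be told apart. All 8 cardiomyocyte markers, among them Myh6 and Tnnt2, were well above background on all 6 arrays and 0 of 8 were called. Each was lower in OLETF, with a median difference of -0.11. Strains did not overlap in Myl2 at -0.18 and Ryr2 at -0.14, where 17.4% of all genes tested did not overlap. Of 5 tested macrophage markers 0 were called, and their summed level ran from 1.10 to 1.22 in OLETF and from 0.90 to 1.53 in LETO on the log2 scale. Of 3 tested lymphocyte markers Cd3g and Nkg7 fell, where 1.05% of all genes tested were lower. The remaining one, Cd3d, had -0.16 with overlapping strains (limma adjusted p = 0.664). The summed level of the lymphocyte markers ran from 0.63 to 0.71 in OLETF and from 1.18 to 1.48 in LETO. Summed levels add unlogged signals, so the brightest probe, here that of Nkg7, weighs most. Of 6 endothelial and 6 fibroblast markers 0 were called. Strains did not overlap in the endothelial Vwf at -0.33 and Kdr at 0.25, and in the fibroblast Dcn at 0.40 and Pdgfra at 0.33. The other markers of both lists overlapped, with the fibroblast Col1a2 at 0.13, Col1a1 at -0.06, Col3a1 at -0.02 and Tcf21 at -0.16. Median differences were -0.02 for the endothelial and 0.06 for the fibroblast list. The summed level of the fibroblast markers ran from 6.30 to 6.51 in OLETF and from 5.97 to 6.37 in LETO. The adipocyte marker Fabp4, the only one of its list tested, had 0.20 without overlap (limma adjusted p = 0.512). Of 3 tested smooth muscle markers 0 were called, but each was lower in OLETF, with differences of -0.79 for Myh11 (limma adjusted p = 0.436), -0.78 for Tagln (limma adjusted p = 0.362) and -0.44 for Acta2 (limma adjusted p = 0.239). Strains did not overlap in Acta2, and the summed level of the smooth muscle markers ran from 1.35 to 1.81 in OLETF and from 1.64 to 2.71 in LETO. Of 3 tested red blood cell markers Slc4a1 rose, with a difference of 3.19 (limma adjusted p = 0.00589). The globins Hbb and Hba-a2 had differences of the other sign, -2.22 (limma adjusted p = 0.411) and -0.94 (limma adjusted p = 0.304), and the summed level ran from 2.73 to 2.95 in OLETF and from 2.65 to 4.49 in LETO. The part of other cells in the difference of Wdr45b was not tested.

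**Figure D4:**
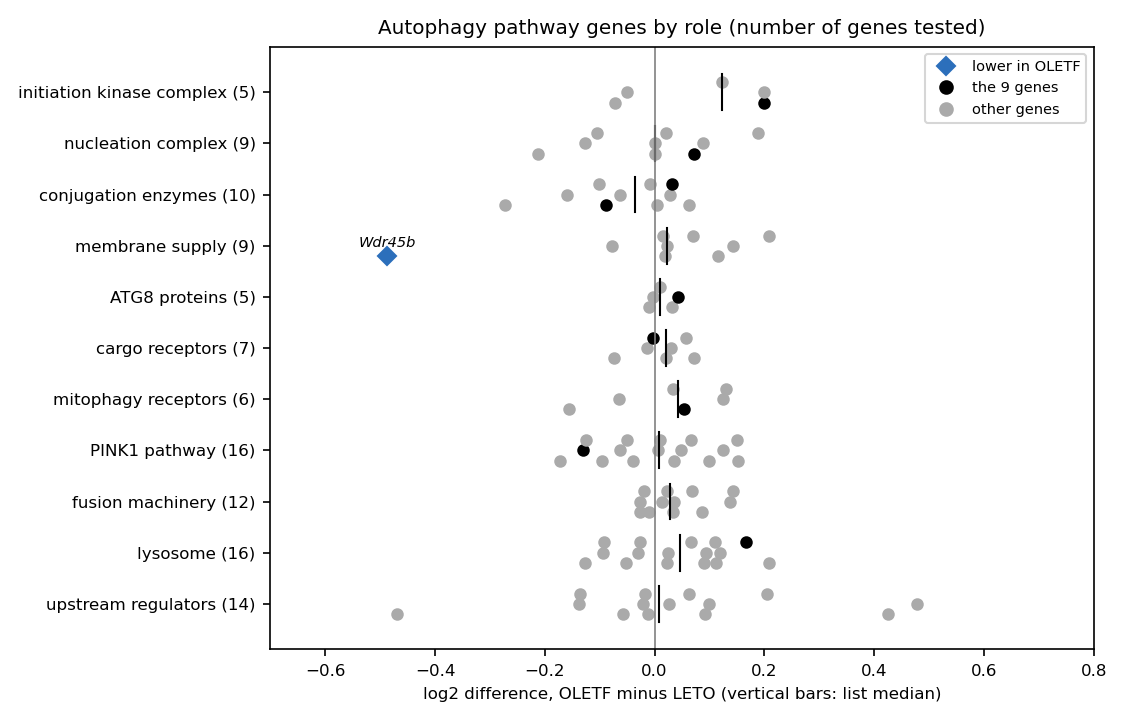
Difference of each of the 109 tested genes (horizontal axis, log2 units, OLETF minus LETO) by role, with the number tested in each list in brackets, the median of the list as a vertical bar and the 9 genes in black. Wdr45b in blue is the only one of the 109 genes that passed the test, and the list medians lie between -0.04 and 0.12.

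By role, none of the 5 genes of the initiation kinase complex passed, and their median was 0.12. Ulk2, the relative of Ulk1, had 0.12 (limma adjusted p = 0.760), and Atg13, a partner of the kinase, had 0.20 (limma adjusted p = 0.506). The dimmer probe of Atg13 gave 0.08 with overlapping strains (limma adjusted p = 0.864 over probes). In the nucleation complex 0 of 9 passed, with a median of 0.0013, and Bcl2, which binds beclin, had the widest difference at -0.21 (limma adjusted p = 0.642). Among 10 conjugation enzymes 0 passed, with a median of -0.04. Atg3, the conjugating enzyme for ATG8 proteins, read 0.56, 0.39 and 0.44 in OLETF, against 0.73, 0.74 and 0.74 in LETO. Those values did not overlap, yet the difference of -0.27 missed the threshold (limma adjusted p = 0.212). Array weights called more of all genes than the main fit did, as counted at the end. With those weights Atg3 at -0.28 (limma adjusted p = 0.0402) and the brighter probe of Atg13 at 0.27 (limma adjusted p = 0.0430) were called.

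Among 7 cargo receptors 0 passed, with a median of 0.02. Optn, the receptor optineurin, had -0.07 (limma adjusted p = 0.886) by its brightest probe, with overlapping strains. Its other probes gave -0.18 (limma adjusted p = 0.433 over probes) and -0.21 (limma adjusted p = 0.347 over probes). For both of those every OLETF value lay below every LETO value. Among 6 mitophagy receptors 0 passed, with a median of 0.04, and Fundc1, a receptor of the outer membrane, had -0.16 (limma adjusted p = 0.604). In the list of the PINK1 pathway 0 of 16 passed, with a median of 0.0081, and Usp15, a deubiquitinase that opposes mitophagy, had -0.17 (limma adjusted p = 0.608). The dimmer probe of Usp15 gave -0.15 without overlap between strains (limma adjusted p = 0.556 over probes). Of the 9 genes of membrane supply only Wdr45b passed, and the median was 0.02.

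In the fusion machinery 0 of 12 passed, with a median of 0.03, and Snap29, a SNARE of autophagosome fusion, had 0.14 (limma adjusted p = 0.621). Of 16 lysosomal genes 0 passed, and the median was 0.05. Gla, the lysosomal alpha-galactosidase whose loss causes Fabry disease in humans, read -4.63, -4.52 and -4.64 in OLETF, against -4.65, -4.94 and -4.83 in LETO. OLETF 3 lay just above LETO 1, so the strains did not overlap, and the difference was 0.21 ± 0.10 (limma adjusted p = 0.499). Strains did not overlap in 4 of the 16, each higher in OLETF, where 8.92% of all genes tested were higher without overlap. These 4, of which Atp6v1h and Scarb2 were named after their values were seen, were Lamp2, Gla, Atp6v1h and Scarb2, with differences of 0.17, 0.21, 0.09 and 0.07.

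Of 14 upstream regulators 0 passed, with a median of 0.0075. Sesn2, a stress-induced inhibitor of mTORC1 named RGD1566319 on the array, had levels of -3.87, -3.44 and -2.04 in OLETF, against -3.53, -3.72 and -3.54 in LETO. OLETF 3 alone was high, and without it the difference turned from 0.48 (limma adjusted p = 0.810) to -0.06. Tsc1, an inhibitor of mTORC1 signalling named here after its values were seen, had -0.47 (limma adjusted p = 0.120) and did not overlap between strains. Its levels were low, at -5.29, -5.09 and -5.42 in OLETF against -4.71, -4.73 and -4.96 in LETO. With array weights, which called more of all genes than the main fit did, Tsc1 was called, at -0.44 (limma adjusted p = 0.0447).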

How the data were processed

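Left ventricles of 3 OLETF and 3 LETO males were profiled, grouped by the strain in the labels. Feature Extraction 10.7.3.1 made the files per the file headers, but the submitters' processing notes give 9.1. The deposited scanner files hold processed signal as linear intensity, background-subtracted by the software per the file headers, with probe positions in rn4. The deposited value table holds the same intensity divided by a constant per array (column medians 0.154, 0.157 and 0.159 in OLETF and 0.163, 0.154 and 0.158 in LETO), so it is linear and uncentred. The label of the source of LETO 2 reads replicate 1, and titles were followed.

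From the log2 of the processed signal, the 75th percentile over the non-control probes of that array was taken off. It lay between 887 and 1228 intensity units. Control spots and 260 to 356 outlier spots per array were left out, which left 17 probes without a value. Between 75.5% and 79.8% of spots were well above background, and the number of arrays limits the precision. Spots of a probe were averaged. Testing required 1 strain with the probe well above background in all 3 rats (21484 of 30367 probes), and the brightest such probe represented its gene. Tests used limma 3.58.1 in R 4.3.3, with lmFit, eBayes and Benjamini-Hochberg adjustment over 18816 genes at 0.05. Tables were read with data.table, version 1.17.8, and pandas 2.3.3 in Python 3.11.15, and figures drawn with matplotlib 3.10.9. The code was tested on simulated data.

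The genes, the lists and the tests were chosen with earlier results of these data known. The text names 9 genes with every probe, 7 relatives whatever their values, and from each list up to 3 called genes or, with none called, the gene with the largest absolute difference. All 9 matched RefSeq by accession. A gene of the rule, which takes 10, and a gene of the lists are not reported here and enter no count of them. An older name of Rubcn was not used, since its accession belongs to another RefSeq gene. Sequences of probes come from the scanner files. Replicate numbers are shared between strains, and deviations within numbers correlated at -0.09, -0.14 and -0.01. Whether the numbers paired the rats cannot be told from these values, and the main fit took no pairing.

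The alternatives were quantile normalization, median scaling, normexp with an offset of 50, the deposited value table, no filter and a filter on all 6 arrays, every probe or the mean of probes, eBayes with trend and robust, array weights, slide, age and replicate blocks, leaving out each array, and a threshold of 0.1.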

Additional observations from a re-analysis of the deposited data

How the results depend on the processing

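Under each of the 20 other settings 0 of the 9 genes was called in either direction, and Ulk1, Becn1, Map1lc3b and Lamp2 kept their sign in all of them. The sign of the others turned in 14 cases, and the cause was not tested. The differences stayed at their main values with no filter, the filter on all 6 arrays and, for the brighter probe, every probe on its own. The same held with eBayes with trend and robust, the replicate block and the threshold of 0.1. It also held with the mean of probes for a gene with 1 probe. In these settings the sign could not turn. Values after a turn of sign are given next by setting, with those of other named genes included. Quantile normalization gave 0.031 for Gabarap and 0.026 for Gabarapl1, median scaling gave 0.016 for Gabarap, 0.0087 for Gabarapl1 and 0.016 for Sqstm1, normexp gave 0.046 for Gabarap and 0.014 for Gabarapl1, and the value table gave 0.0070 for Gabarap and 0.0078 for Sqstm1. The mean of the probes gave 0.053 for Atg5 and 0.056 for Gabarapl1. Array weights gave 0.089 for Sqstm1, -0.033 for Bnip3, -0.012 for Map1lc3a and -0.065 for Gabarapl2. Slide as a block gave 0.069 for Sqstm1, -0.032 for Bnip3, 0.012 for Pink1, -0.10 for Map1lc3a, 0.046 for Gabarap, 0.0064 for Optn and -0.27 for RGD1566319 (Sesn2). Age as a covariate gave -0.00082 for Atg7, 0.020 for Gabarap and 0.058 for Gabarapl1. With each array left out in turn the difference lay between 0.046 and 0.34 for Ulk1, 0.037 and 0.13 for Becn1, -0.13 and -0.047 for Atg5, 0.025 and 0.076 for Map1lc3b, -0.29 and -0.045 for Pink1, 0.096 and 0.23 for Lamp2, -0.0070 and 0.097 for Atg7, -0.085 and 0.16 for Sqstm1, -0.017 and 0.099 for Bnip3, -0.069 and 0.099 for Map1lc3a, -0.039 and 0.032 for Gabarap, -0.12 and 0.098 for Gabarapl1, -0.12 and 0.087 for Gabarapl2, -0.10 and 0.014 for Lamp1, and -0.060 and 0.85 for RGD1566319. Of the 109 pathway genes, 0 rose and 0 fell with no filter, with slide as a block, with age as a covariate and with the replicate block, and with normexp 0 fell. With every probe on its own 1 rose, Atp6v1a, a subunit of the lysosomal proton pump named after its values were seen. Atp6v1a rose by a dimmer probe only, at 0.49 (limma adjusted p = 0.0349 over probes), where 2.55% of all tested probes were called. Its brightest probe gave 0.11 with overlapping strains (limma adjusted p = 0.814). With array weights 1 of the 109 rose and 3 fell, against 875 and 825 of the 18816 genes tested. Without 1 array 0 of the 109 rose and between 0 and 1 fell. Over all genes 149 rose and 91 fell with no filter, which tested 26442 genes, 875 and 825 with array weights, 52 and 53 with slide as a block, and 459 and 340 at an adjusted p below 0.1. Without 1 array between 123 and 375 rose, the lowest without OLETF 2, and between 87 and 239 fell, the lowest without OLETF 3. The replicate block gave 166 and 135 over all genes, and Wdr45l at -0.49 (limma adjusted p = 0.138) lost its call. Rats numbered 1 also share the age of 27 weeks and slide 1, and rats numbered 2 the age of 28 weeks, but the labels do not say that a number marks a litter, batch or day. With 3 arrays per strain a difference of Ulk1 up to 1.49-fold lay within its confidence interval.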
